A study of Mus musculus with 2 samples.

Results

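The Hox genes were examined in single stromal cells of the mouse mammary gland at puberty and in the adult. Members were all genes whose symbol is Hoxa, Hoxb, Hoxc or Hoxd followed by digits alone, which gave 39 of the 33696 genes listed in the count matrices. The rule itself uses symbols and no measured value. Each stage was represented by 1 droplet library of sorted Lineage-negative, CD24-negative stromal cells from wildtype C57BL/6 females, 2 per library, taken at 4 weeks (puberty) or as virgins at 9 weeks (adult). Libraries were made with the 10x Genomics GEM-X 3′ v4 chemistry, in which every RNA molecule that is caught receives its own random barcode, the UMI, so that copies made by PCR are counted once. The labels do not give the position of the dissected glands along the body, so a difference between the stages and a difference in dissection cannot be told apart. With 1 library per stage no test between stages was possible, no p-value is given, and all 95% intervals cover counting error only.

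Hox genes encode homeodomain transcription factors that give cells along the body axis their positional identity. They lie in 4 clusters, A to D, in which genes at the same position are paralogs of each other and are numbered 1 to 13. Low-numbered genes are first active in the head and neck region, middle groups in the thorax and high-numbered groups towards the lumbar region, tail and distal limb, and adult fibroblasts keep much of the Hox pattern of their site of origin. In the mammary gland, Hoxc6 and Hoxc8 are known from the embryonic rudiments along the flank, and the group 9 genes Hoxa9, Hoxb9 and Hoxd9 are jointly needed for gland development in pregnancy.

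Of the 21688 barcodes with 255274670 UMIs in the puberty library and the 23183 barcodes with 259549498 UMIs in the adult library, 21534 and 22972 cells had at least 500 genes and at most 10% mitochondrial UMIs, and 145 barcodes occurred in both libraries. Fibroblasts were taken as cells with a UMI of Pdgfra, a receptor of fibroblast lineages, which gave 18878 cells at puberty (87.7% of kept cells, median 12187 UMIs) and 20999 in the adult (91.4%, median 11265 UMIs). Mural cells, the contractile cells around vessels, were taken as cells without a Pdgfra UMI but with Myh11 or Rgs5, which gave 783 and 457 cells. The marker sums went with the labels of both groups. Pdgfra, Myh11 and Rgs5 are themselves among these markers, so part of the contrast was set by the gates. The summed level of 6 fibroblast markers was 32284 and 27168 CPM (UMIs of a gene per 1000000 UMIs of the group) in Pdgfra+ cells against 4867 and 2526 CPM in mural cells, and that of 6 mural markers was 15553 and 14241 CPM in mural cells against 68.6 and 40.6 CPM in Pdgfra+ cells. Throughout, pairs of values are given with puberty first and the adult second unless stated otherwise.

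The results turn on 7 Hox genes. Hoxc8 was the most abundant, Hoxb2 and Hoxb4 were higher in mural cells, and Hoxb5 was higher in 1 fibroblast subset at both stages. Hoxa9, Hoxa10 and Hoxc10, genes of groups 9 and 10, were at least 2-fold lower in that subset in the adult only, as was Hoxc9. The homeoboxes of Hoxa10, Hoxb2, Hoxc8 and Hoxc10, the 180 bases that encode the DNA-binding homeodomain, are shown 5′ to 3′ on the coding strand as read from the GRCm38 (mm10) genome. Capitals mark the 6 codons in the recognition helix that contacts the DNA major groove. Each of these homeoboxes lay in a single coding exon, exon 2 of 2.

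Hoxa10, chr6:52232554-52232733, minus strand: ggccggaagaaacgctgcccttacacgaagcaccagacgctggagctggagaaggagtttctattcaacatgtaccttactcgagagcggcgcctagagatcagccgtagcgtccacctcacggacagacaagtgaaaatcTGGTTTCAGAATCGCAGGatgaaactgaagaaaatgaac
Hoxb2, chr11:96352985-96353164, plus strand: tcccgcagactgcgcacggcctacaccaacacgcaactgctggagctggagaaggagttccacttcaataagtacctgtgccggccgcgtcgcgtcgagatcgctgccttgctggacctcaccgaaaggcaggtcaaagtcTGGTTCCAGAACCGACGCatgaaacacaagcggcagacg
Hoxc8, chr15:102992571-102992750, plus strand: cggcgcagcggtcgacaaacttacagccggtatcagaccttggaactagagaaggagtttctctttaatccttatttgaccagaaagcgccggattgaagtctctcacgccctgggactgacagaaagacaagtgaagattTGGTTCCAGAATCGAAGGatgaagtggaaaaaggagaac
Hoxc10, chr15:102970848-102971027, plus strand: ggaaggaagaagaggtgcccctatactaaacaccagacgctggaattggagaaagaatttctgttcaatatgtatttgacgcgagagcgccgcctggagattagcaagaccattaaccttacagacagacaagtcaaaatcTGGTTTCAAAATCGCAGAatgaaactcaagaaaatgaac

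Homeoboxes of one paralog group were, by their median, more alike than those of other pairs. Across all members, the 42 pairs of one paralog group shared a median of 93.3% of the 60 encoded residues (78.3% to 100%), and the 699 other pairs, within and between clusters, shared a median of 61.7% (40% to 93.3%). Hoxa10 and Hoxc10, on different chromosomes, were identical at 80.6% of bases and differed in 4 residues, whereas Hoxc8 and Hoxc10 of the same cluster were identical at 60% of bases and differed in 19 residues. Hoxb2 and Hoxc8 differed in 24 residues. Counts were taken from transcript 3′ ends, so they were not divided by transcript length and paralogs of this similarity were told apart by their 3′ sequence.

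Mammary Pdgfra+ fibroblasts expressed Hox genes of all 4 clusters, with the HoxC cluster in the lead. Of the 39 genes, 6 had a mean level over both libraries of at least 10 CPM, 13 were between 1 and 10 CPM, 16 were below 1 CPM with at least 1 UMI, and 4 (Hoxa13, Hoxb13, Hoxd12 and Hoxd13, which pattern the tail end, genital tract and distal limb) had no UMI in either library. A count of 0 allows up to 3 UMIs per library. Levels between genes are compared as CPM of summed 3′ UMIs.

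Hoxc8, a thoracic patterning gene that takes part in placing the mammary rudiments, was the most abundant at both stages, at 25.2 and 39.1 CPM (5958 and 9678 UMIs), and ranked 4733 among all genes by its mean level. Hoxc4 followed with 20.6 and 28.8 CPM (4887 and 7118 UMIs), and Hoxc6, known from the thoracic level, with 18.6 and 24.4 CPM (4396 and 6038 UMIs). Hoxc10, a gene of the lumbar region and hindlimb, stood at 22.7 and 16.0 CPM (5384 and 3952 UMIs). Only Hoxc8 was above it at puberty, whereas Hoxc4, Hoxc6 and Hoxc9 were also above it in the adult. Hoxc9, a gene of the thoracic and lumbar boundary, had 17.7 and 16.7 CPM (4181 and 4138 UMIs).

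The leading genes of the other clusters were lower than these. Hoxa9 had 10.6 and 11.1 CPM (2507 and 2757 UMIs) and Hoxb4, best known for its action in blood stem cells, 8.48 and 11.1 CPM (2008 and 2746 UMIs). Hoxc5 had 7.60 and 9.83 CPM, Hoxa10, a gene of the lumbar spine and uterus, 9.49 and 6.69 CPM, and Hoxb2, a hindbrain patterning gene, 5.78 and 9.93 CPM. These 10 genes held 79.9% of all Hox UMIs at puberty and 76.4% in the adult. From the D cluster, Hoxd8 reached 8.68 and 6.54 CPM and Hoxd9 1.56 and 1.08 CPM.

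Levels dropped after group 10. The 9 genes of groups 11 to 13 had 222 UMIs at puberty and 175 in the adult in all, most of them from Hoxc11, and Hoxd11, a distal limb gene, went from 69 UMIs (0.292 CPM) to 12 (0.0485 CPM). At the other end, Hoxb1 and Hoxd1, genes of the hindbrain, were at or near 0 with 3 or fewer UMIs in a library. Within the Hoxc cluster the lowest gene from Hoxc4 to Hoxc10 was Hoxc5 at puberty with 7.60 CPM, next to Hoxc11 below 1 CPM.

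**Figure D1:**
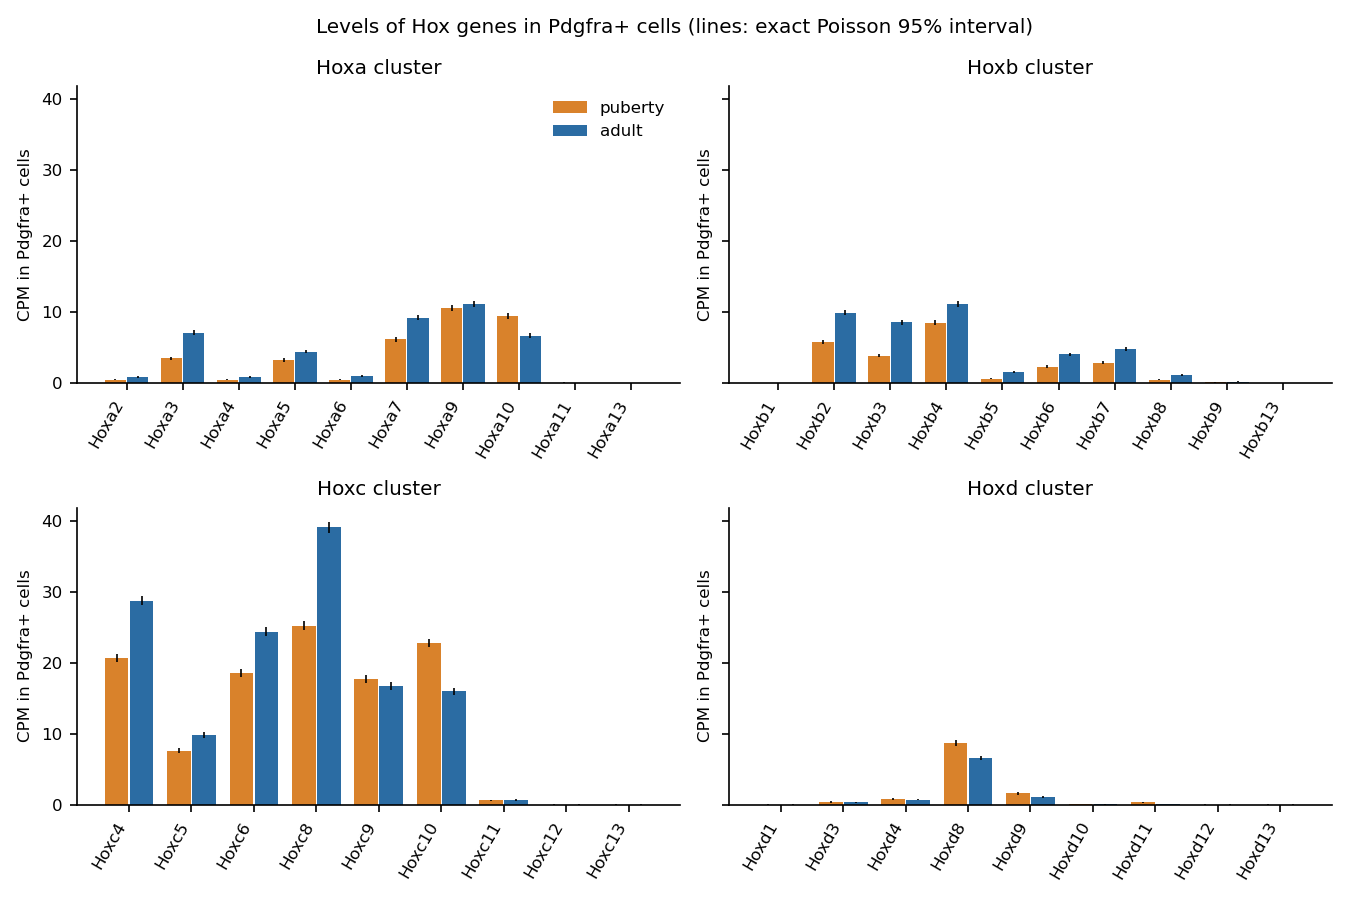
Bars give the level of Hox genes (y axis, CPM of summed UMIs) in Pdgfra+ cells of the puberty (orange) and adult (blue) library, in 1 panel per cluster with genes in paralog order, and lines give the exact Poisson 95% interval. Hoxc8 is highest at 25.2 and 39.1 CPM, and no gene of groups 11 to 13 reaches 1 CPM.

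Exons of Hoxc5 and Hoxc10 overlapped by 166 bases in the GENCODE annotation of the same build, and those of Hoxd3 and Hoxd4 by 388 bases, so reads from the shared stretches cannot be told apart and the values of these 4 genes are uncertain to that extent. The clusters spanned 105 kb on chromosome 6 (HoxA, 52155590 to 52260880), 174 kb on chromosome 11 (HoxB, 96194316 to 96368256), 116 kb on chromosome 15 (HoxC, 102921103 to 103036852) and 96.8 kb on chromosome 2 (HoxD, 74668310 to 74765142). HoxC, with 9 genes, gave 61.5% of the Hox UMIs of Pdgfra+ cells at puberty and 59.6% in the adult. HoxA gave 18.8% and 18.4%, HoxB 13.3% and 18.2%, and HoxD 6.37% and 3.85%.

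The comparison of the stages addressed whether the positional code of fibroblasts changed between puberty and adulthood. Of 14 tested genes of groups 1 to 8, 8 were called higher in the adult library, and of the 5 tested genes of groups 9 and 10 none was called in either direction. In Pdgfra+ cells the Hox total at puberty was 183.8 CPM (182.0 to 185.5) and the adult total 227.2 CPM (225.3 to 229.1), a ratio of 1.24 (1.22 to 1.25). Such a sum over cells cannot tell fewer expressing cells from less RNA per cell. Of the 19 Hox genes that passed the level filter (a mean of at least 1 CPM and at least 10 expected UMIs), 8 were at least 1.5-fold higher in the adult, where 16.7% of all genes tested were, and none was at least 1.5-fold lower, where 6.41% of all genes were.

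The largest ratios lay in the HoxB cluster. Hoxb5 went from 0.604 to 1.57 CPM, a ratio of 2.60 (2.14 to 3.17), and Hoxb3, which acts in hindbrain and neck, from 3.87 to 8.56 CPM, a ratio of 2.21 (2.05 to 2.4). Hoxa3, a gene needed for thymus and parathyroid, went from 3.49 to 7.07 CPM (2.02, 1.86 to 2.20). Both are group 3 genes, on different chromosomes, with ratios of a like size.

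Hoxb6 went from 2.28 to 4.03 CPM (1.76, 1.59 to 1.96), Hoxb2 from 5.78 to 9.93 CPM (1.72, 1.61 to 1.83) and Hoxb7 from 2.84 to 4.81 CPM (1.69, 1.54 to 1.86). Hoxc8 at 1.55 (1.5 to 1.60) and Hoxa7, a thoracic gene that went from 6.14 to 9.24 CPM, at 1.5 (1.41 to 1.61) were the members just inside the 1.5-fold limit. Just outside it were Hoxc4 (1.39), Hoxa5 (1.37; 3.25 and 4.44 CPM), Hoxc6 and Hoxb4 (both 1.31) and Hoxc5 (1.29). Among genes under the level filter, Hoxb8 stood at 0.473 and 1.09 CPM (ratio 2.31, 1.84 to 2.90), Hoxa6 at a ratio of 2.12, Hoxa2 of 1.87, Hoxa4 of 1.82 and Hoxb9 of 1.56 (0.944 to 2.62, on 27 and 44 UMIs). Hoxd3 stood at 0.347 CPM at both stages, and Hoxd4 (ratio 0.909) and Hoxc11 (1.08) had intervals that included 1.

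The tested genes of groups 9 and 10 lay lower. Hoxc10 had a ratio of 0.702 (0.673 to 0.731), Hoxa10 of 0.705 (0.662 to 0.752) and Hoxd9 of 0.694 (0.591 to 0.815), all just short of a 1.5-fold call. Hoxc9 had 0.946 (0.906 to 0.988) and Hoxa9 1.05 (0.996 to 1.11). Of the 14 tested genes of groups 1 to 8, 13 were above a ratio of 1 (median 1.53), Hoxd8 at 0.754 being the exception, and of the 5 of groups 9 to 13, 4 were below 1 (median 0.705). The median ratio was 1.37 over the 19 Hox genes and 1.12 over all genes tested.

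**Figure D2:**
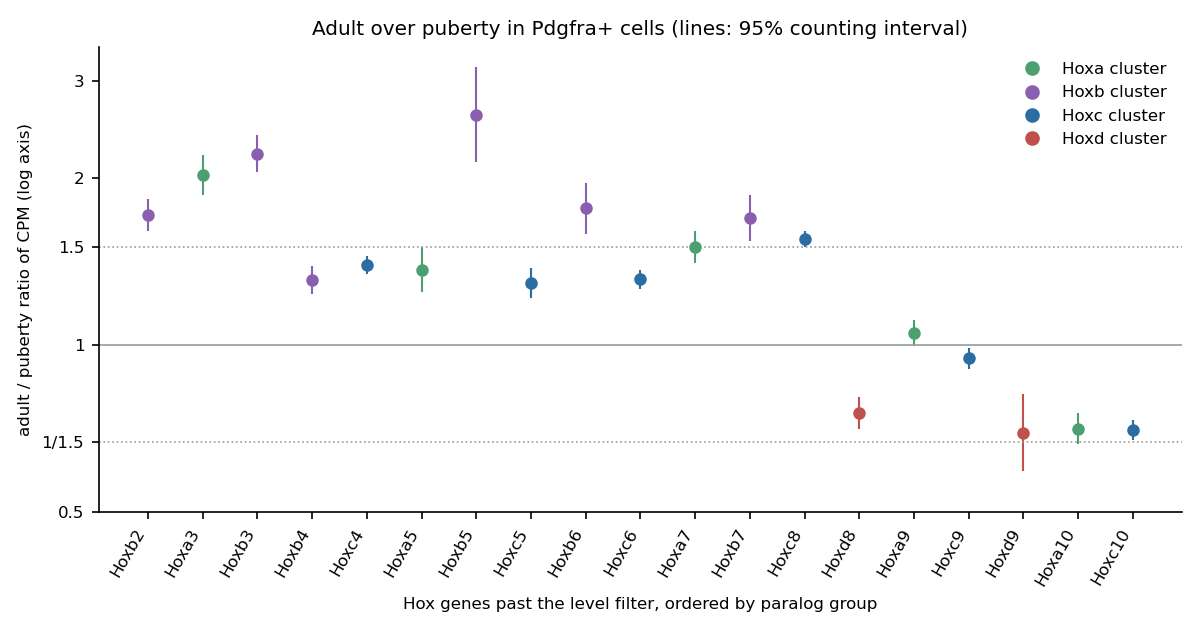
Points give the adult over puberty ratio of CPM in Pdgfra+ cells (y axis, log scale) for the 19 Hox genes past the level filter, ordered by paralog group and coloured by cluster, with 95% counting intervals as lines and dotted lines at the 1.5-fold limit. All genes from Hoxb2 to Hoxc8 lie above 1, up to 2.60 for Hoxb5, and Hoxa10, Hoxc10 and Hoxd9 lie near 0.70.

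The count of calls moved with the scaling. The median gene of at least 10 CPM had a ratio of 1.10 (0.13 on the log2 scale), and with ratios divided by it 6 Hox genes were called higher (Hoxa3, Hoxb2, Hoxb3, Hoxb5, Hoxb6 and Hoxb7, against 11.9% of all genes) and 3 lower (Hoxa10, Hoxc10 and Hoxd9, against 8.59%). The direction of Hoxa9 also turned, since its ratio of 1.05 lies below that of the median gene.

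As a share of Hox UMIs, groups 9 to 13 gave 34.4% in the puberty library (33.9 to 34.8) and 23.1% in the adult one (22.8 to 23.4). Groups 1 to 3 gave 7.71% and 12%, and groups 4 to 8 gave 57.9% and 64.9%. Expressed as levels, the sum of groups 1 to 3 was 1.93 times as high in the adult (1.85 to 2.01), that of groups 4 to 8 was 1.39 times (1.36 to 1.41), and that of groups 9 to 13 was 0.831 times (0.812 to 0.851). The ratio therefore fell from the anterior to the posterior groups.

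The makeup of the fibroblasts differed between the libraries, so the stages were also compared within 5 subsets of Pdgfra+ cells. Cells with UMIs of both Pi16 and Dpp4, markers of adventitial progenitor-type fibroblasts, were 74.1% of Pdgfra+ cells at puberty and 42.2% in the adult, cells with Gdf10 or Fmo2 39.5% and 47.9%, cells with Thbs4 or Bmp5 4.91% and 14.8%, cells with at least 2 UMIs of Fabp4, a fatty acid carrier of preadipocytes, 9.42% and 12.2%, and cells with Crabp1, a retinoic acid carrier, 1.53% and 12.7%. The subsets overlapped, with 30.7% and 35.5% of Pdgfra+ cells in more than 1 of them, and the smallest was the 289 Crabp1 cells at puberty.

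Hoxb3 was at least 1.5-fold higher in the adult in each of the 5 subsets, 1 of 17 Hox genes tested in all of them, where 2.22% of all genes were higher in each. It went from 3.41 to 7.46 CPM in Pi16+Dpp4+ cells, from 4.19 to 8.67 CPM in Gdf10 or Fmo2 cells, from 6.64 to 10.1 CPM in Thbs4 or Bmp5 cells, from 4.97 to 9.62 CPM in Fabp4 cells and from 4.95 to 10.0 CPM in Crabp1 cells. The ratios were 2.19, 2.07, 1.52, 1.93 and 2.03 in this order. No Hox gene was lower in each subset, where 1.5% of all genes were.

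Hoxc10 was below 1 in every subset without reaching the limit in all of them. Its ratios were 0.666 in Pi16+Dpp4+, 0.679 in Gdf10 or Fmo2, 0.486 in Thbs4 or Bmp5, 0.771 in Fabp4 and 0.477 in Crabp1 cells. Hoxa10 had 0.620, 0.704, 0.522, 0.916 and 0.828 in the same order, also below 1 throughout. Hoxa9 was mixed, with 0.777, 1.09, 0.617, 1.22 and 0.720. Hoxc8 had ratios of 1.53, 1.53, 1.49, 1.29 and 1.62, and Hoxb2 of 1.83, 1.68, 1.5, 1.24 and 1.24. The sum of groups 9 to 13 had a ratio below 1 in each subset, from 0.637 in Thbs4 or Bmp5 cells to 0.974 (0.911 to 1.04) in Fabp4 cells, where the interval included 1.

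**Figure D3:**
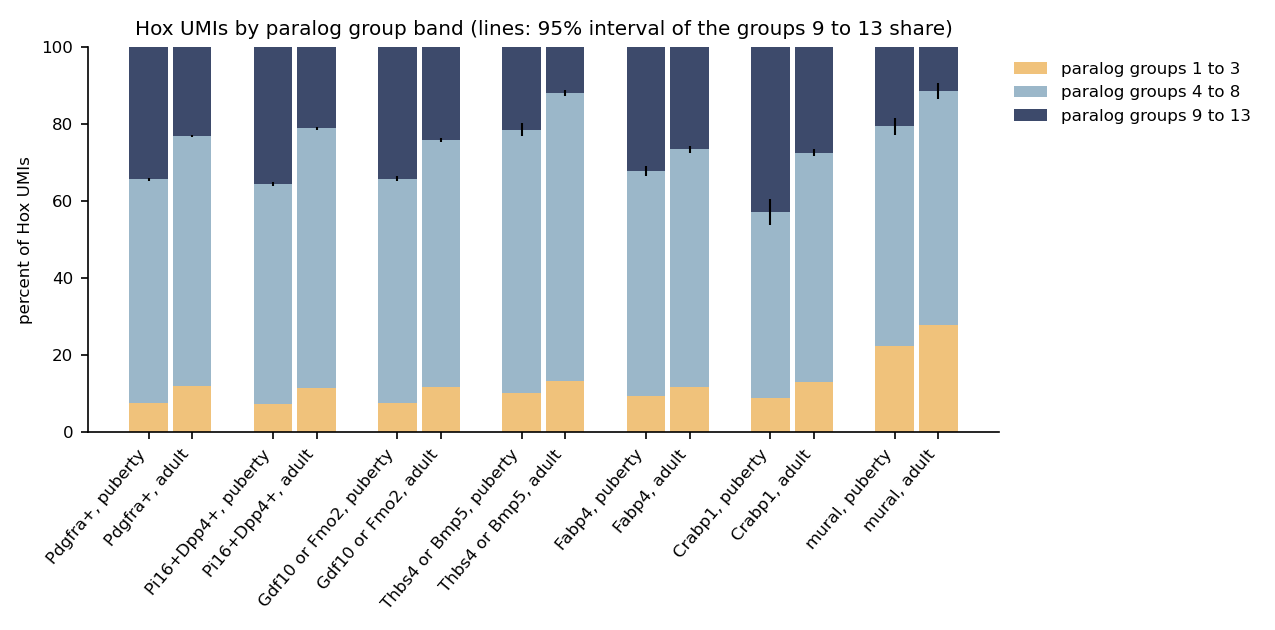
Stacked bars give the percent of all Hox UMIs (y axis) from paralog groups 1 to 3, 4 to 8 and 9 to 13 in each cell group at puberty and in the adult, and lines give the exact 95% interval of the groups 9 to 13 share. That share is smaller in the adult bar of each pair, from 34.4% to 23.1% in Pdgfra+ cells and from 20.6% to 11.3% in mural cells.

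The subsets were then compared with the other Pdgfra+ cells of the same library, at a limit of 2-fold in both stages. In 4 of them no Hox gene was called at both stages, beside small shares of all genes. None of 18 tested Hox genes passed in either direction in Pi16+Dpp4+ cells (4.12% of all genes were higher and 6.42% lower), none of 18 in Gdf10 or Fmo2 cells (0.975% and 0.59%), none of 17 in Fabp4 cells (2.38% and 3.21%) and none of 17 in Crabp1 cells (4.75% and 5.37%). The Hox total of a subset over the other cells lay between 0.874, in Pi16+Dpp4+ cells at puberty, and 1.15, in Crabp1 cells at puberty.

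In Thbs4 or Bmp5 cells, of the 19 Hox genes tested in both stages, 1 (Hoxb5) was at least 2-fold higher in both, where 2.24% of all genes were, and none was lower in both (0.795%). At puberty Hoxb5 alone passed, 1 of 19 (5.81% of all genes), and none was lower (1.61%). In the adult, 3 of 20 were higher (2.91% of all genes), namely Hoxb5, Hoxb6 and Hoxb8, and 4 were lower (2.27%), namely Hoxa9, Hoxa10, Hoxc9 and Hoxc10.

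Hoxb5, a middle gene of the HoxB cluster that is also known from lung and gut mesenchyme, stood at 2.55 CPM in these cells against 0.502 CPM in the others at puberty (30 UMIs, ratio 5.08, 3.28 to 7.66) and at 4.95 against 0.940 CPM in the adult (193 UMIs, 5.27, 4.30 to 6.46). Hoxb8 of the same cluster had ratios of 3.43 (1.92 to 5.78, under the level filter) and 3.97 (3.09 to 5.08), and Hoxb6 of 1.57 and 2.04. All of these lie in the HoxB cluster, and Hoxb7 between them was not called.

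In the same cells, 4 of the 5 tested genes of groups 9 and 10 had ratios below 1 at both stages, all 4 past the 2-fold limit in the adult and none at puberty. Hoxd9 was the other one, with a puberty ratio of 0.643 (0.329 to 1.14) and an adult ratio of 1.48 (1.08 to 1.99). Hoxc10 had 15.3 CPM against 23.1 CPM at puberty (ratio 0.662) and 7.44 against 17.6 CPM in the adult (0.424). Hoxa9 had ratios of 0.688 and 0.369, Hoxa10 of 0.589 and 0.403, and Hoxc9 of 0.522 and 0.432. Groups 9 to 13 gave 21.4% of the Hox UMIs of Thbs4 or Bmp5 cells at puberty and 12% in the adult, against 42.8% and 27.4% in Crabp1 cells. With cells required to hold 1 UMI more of Thbs4 or Bmp5, the contrast was larger at both stages. Hoxb5 then had ratios of 8.66 and 6.84, Hoxb8 of 5.76 and 4.55, Hoxa9 of 0.314 and 0.211, Hoxa10 of 0.335 and 0.232, and Hoxc10 of 0.412 and 0.260.

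The summed mural markers stood at 352 CPM (puberty) and 85.4 CPM (adult) in Thbs4 or Bmp5 cells, above the 68.6 and 40.6 CPM of all Pdgfra+ cells. Without cells holding a mural marker, Hoxb5 had ratios of 4.31 and 5.12, Hoxb8 of 3.79 and 4.14 and Hoxc10 of 0.562 and 0.406. Single members of other subsets passed at 1 stage or lay near the limit. Hoxd8 stood at 0.499 and 0.510 in Fabp4 cells, Hoxa9 at 2.02 and 1.44 in Crabp1 cells, and Hoxb5 in the adult at 0.386 in Fabp4 and 0.359 in Crabp1 cells. Fabp4 cells held more of the summed mural markers than Thbs4 or Bmp5 cells, at 517 and 200 CPM.

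**Figure D4:**
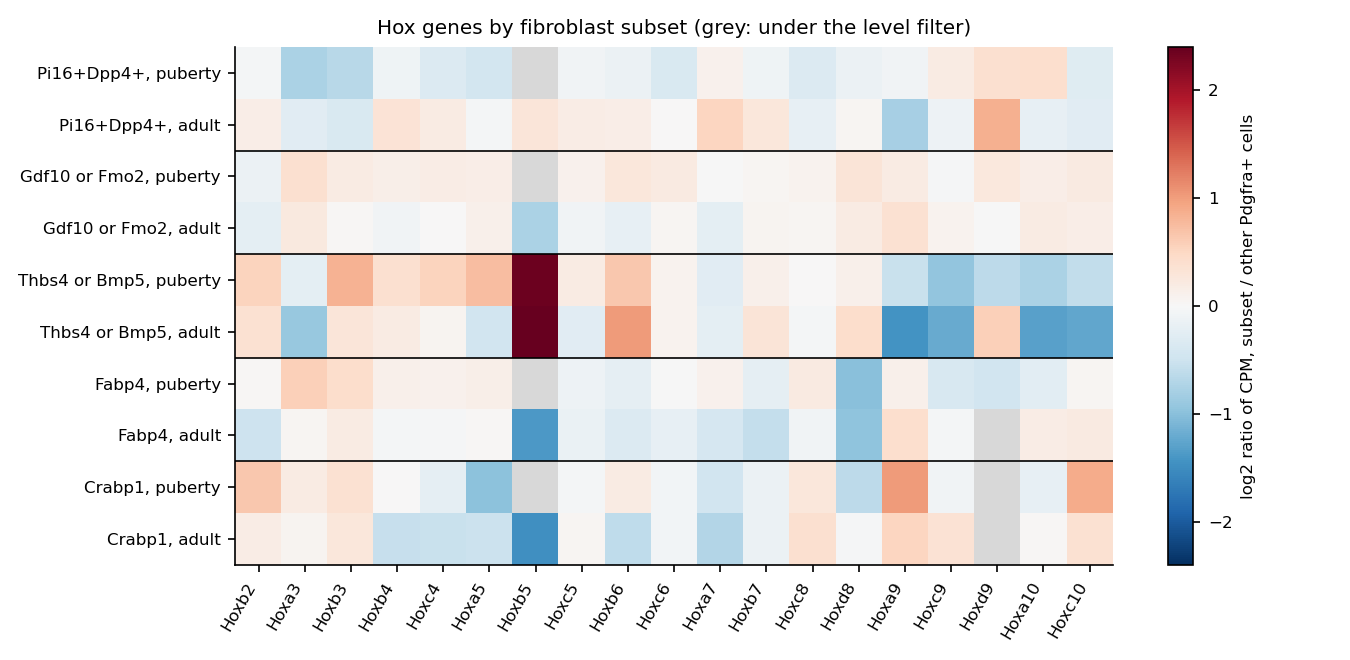
Colours give the log2 ratio of CPM of each Hox gene between a subset and the other Pdgfra+ cells, with genes in paralog order on the x axis, subset and stage on the y axis and grey where the gene was under the level filter. The Thbs4 or Bmp5 lines are red at Hoxb5 (ratios 5.08 and 5.27) and blue at Hoxa9, Hoxc9, Hoxa10 and Hoxc10, and the Gdf10 or Fmo2 lines are pale apart from Hoxb5 in the adult.

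Mural cells of the same glands had a higher Hox total than the fibroblasts, with Hoxb2 and Hoxb4 higher and Hoxa9 and Hoxa10 lower, while the share of Hox genes called was near that of all genes. Hox genes made up 255.1 CPM at puberty and 325.1 CPM in the adult in mural cells, 1.39 times (1.31 to 1.47) and 1.43 times (1.34 to 1.53) the level of Pdgfra+ cells. Of the 16 Hox genes tested in both stages, 3 (Hoxb2, Hoxb4 and Hoxd9) were at least 2-fold higher in mural cells at both, where 13.7% of all genes were, and 2 (Hoxa9 and Hoxa10) were at least 2-fold lower, where 12.7% were. Taken by stage, 4 of 18 were higher (18.4% of all genes) and 2 lower (18%) at puberty, and 4 of 16 were higher (18.1%) and 2 lower (14.5%) in the adult. The 1-stage calls were Hoxb3 at puberty (2.54) and Hoxd8 in the adult (2.24).

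Hoxb2 was the leading mural Hox gene. It stood at 40.8 CPM in mural against 5.78 CPM in Pdgfra+ cells at puberty (208 mural UMIs), a ratio of 7.05, and at 64.1 against 9.93 CPM in the adult (188 mural UMIs), a ratio of 6.45. Hoxb4 had 32.4 CPM in mural cells at puberty and 43.6 CPM in the adult, with ratios of 3.81 and 3.93. Hoxd9 had 4.12 and 5.79 CPM on 21 and 17 UMIs, with ratios of 2.64 and 5.35.

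Hoxa9 was lower, with 4.90 and 3.07 CPM in mural cells on 25 and 9 UMIs and ratios of 0.463 and 0.275, and Hoxa10 had 2.55 and 2.39 CPM on 13 and 7 UMIs and ratios of 0.269 and 0.357. Hoxc10, the paralog of Hoxa10, had ratios of 1.23 and 0.811 and was called at neither stage. Hoxc8, which led in fibroblasts, had ratios of 0.865 and 0.819 and Hoxc6 of 1.34 and 1.26. The HoxB cluster gave 35.4% and 40.5% of mural Hox UMIs, against 13.3% and 18.2% in Pdgfra+ cells, and HoxC gave 42.9% and 39.8%.

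The stage pattern of the fibroblasts was seen in mural cells at lower precision. These cells came from the same libraries, so they are no independent check of the stages. They also held 4867 and 2526 CPM of the summed fibroblast markers, and whether fibroblast RNA adds to their Hox values was not tested. Groups 9 to 13 gave 20.6% of mural Hox UMIs at puberty and 11.3% in the adult, and their summed level had an adult over puberty ratio of 0.700 (0.555 to 0.879). Hoxc10 went from 28.0 to 12.9 CPM (0.462, 0.314 to 0.665) and Hoxb2 had a ratio of 1.57 (1.28 to 1.92). Hoxb3 had 1.46 (0.945 to 2.25), an interval that included 1. The summed epithelial markers were 29.6 CPM in mural cells at puberty and 577 CPM in the adult, and without cells holding 1 of these markers the adult Hox total was 1.61 times (1.5 to 1.71) that of Pdgfra+ cells.

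**Figure D5:**
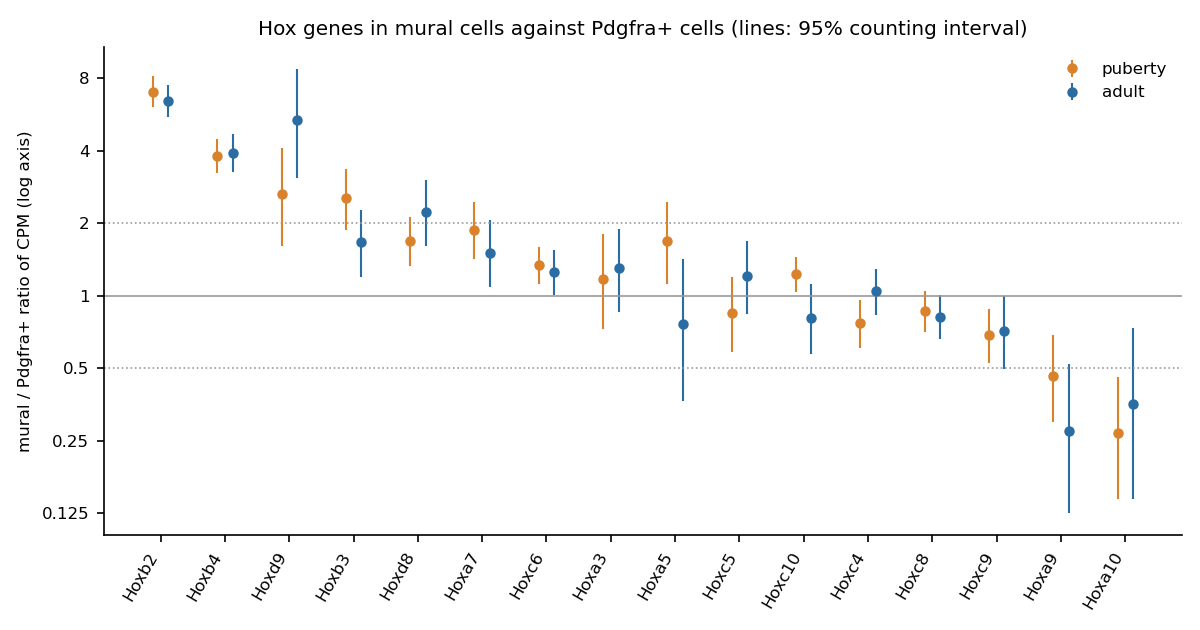
Points give the ratio of CPM between mural and Pdgfra+ cells (y axis, log scale) for the 16 Hox genes past the level filter in both stages, at puberty (orange) and in the adult (blue), with 95% counting intervals as lines and dotted lines at the 2-fold limit. Hoxb2 (7.05 and 6.45) and Hoxb4 (3.81 and 3.93) are highest, and Hoxa9 and Hoxa10 lie below 0.5 at both stages.

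Promoter sequences, from 250 bases before to 50 after the annotated start, are shown for Hoxb4 and Hoxd9, the mural-higher genes with an entry in the RefSeq promoter table (GRCm38.p6), which held 24 promoters of 22 Hox genes. Capitals mark a match to AGGTCA, a core site of retinoid receptors, on either strand.

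Hoxb4, chr11:96318017-96318316, plus strand: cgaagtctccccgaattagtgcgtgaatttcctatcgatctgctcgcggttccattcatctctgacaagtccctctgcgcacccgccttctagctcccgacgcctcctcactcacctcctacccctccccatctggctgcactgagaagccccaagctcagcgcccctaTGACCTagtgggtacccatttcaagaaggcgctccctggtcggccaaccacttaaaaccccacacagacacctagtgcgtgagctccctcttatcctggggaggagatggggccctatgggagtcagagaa
Hoxd9, chr2:74697513-74697812, plus strand: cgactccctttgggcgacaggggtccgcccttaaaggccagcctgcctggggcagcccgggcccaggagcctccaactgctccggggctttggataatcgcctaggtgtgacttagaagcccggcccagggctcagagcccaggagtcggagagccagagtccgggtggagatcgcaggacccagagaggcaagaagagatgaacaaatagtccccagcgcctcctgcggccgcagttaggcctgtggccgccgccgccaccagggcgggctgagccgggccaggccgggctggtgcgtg

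In the Hoxb4 promoter the match lay on the minus strand, upstream of the start, and the Hoxd9 window had no match. AGGTCA was found on either strand in 7 of 24 Hox promoters (29.2%) and in 16.3% of all 32851 promoters of this length. TGATNNAT, a letter pattern bound by Pbx and Hox proteins together, was found in 4 of 24 and in 8.85% of all, and TTTATNG, a pattern of posterior Hox proteins, in 2 of 24 and in 10.9%. A match describes letters in the window and no binding was measured.

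Non-coding RNAs of the clusters were counted under symbols of their own, but whether counting used the strand was not given in the sources used here, so those that overlap a Hox gene are uncertain. Of the 11 on the list, 10 were among the listed genes and 3 passed the filter between stages, of which none was higher in the adult and 1, Hoxd3os1, was lower (0.662), beside 16.7% and 6.41% of all genes. Hoxb3os, in the HoxB cluster beside Hoxb3, had 28.8 and 45.3 CPM in mural cells against 2.68 and 3.60 CPM in Pdgfra+ cells (ratios 10.7 and 12.6). Hotairm1, at the anterior end of HoxA, had 33.5 and 37.5 CPM against 5.84 and 7.51 CPM (5.74 and 4.99). Hoxb3os and Hotairm1 were thus 2 of 3 tested at puberty and 2 of 2 in the adult, beside 18.4% and 18.1% of all genes. Hotair, in the posterior HoxC cluster, had only 15 and 7 UMIs in Pdgfra+ cells.

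Single cells held few Hox transcripts, with a median of 2 detected Hox genes per Pdgfra+ cell at both stages. At least 1 Hox UMI was found in 83.6% of Pdgfra+ cells at puberty and 85.8% in the adult at full depth, and in 42.2% and 48.2% after each cell was thinned to 3000 UMIs, which left out 336 and 426 shallower cells. Cells gated on the satellite cell genes Pax7, Myf5 and Myod1 (34 and 94 cells) had a Hox UMI in 28.1% and 39.8% of thinned cells and a summed Hox level of 182 and 194 CPM. Cells gated on the endothelial genes Pecam1, Cdh5 and Egfl7 (17 and 64 cells) had one in 80% of 10 and 66.7% of 21 thinned cells and a level of 379 and 433 CPM. This endothelial gate also held 3603 and 108 CPM of the summed mural markers, beside 2682 and 3800 CPM of 4 endothelial markers, so it was mixed at puberty. Free RNA in a droplet can add a UMI to a cell that does not express the gene, and no share in a cell type without Hox expression is given here. After thinning, Hoxc8 was found in 7.44% and 10.8% of Pdgfra+ cells, Hoxc10 in 6.46% and 4.46% and Hoxb2 in 1.85% and 3.18%, against 12.9% and 16.0% of mural cells for Hoxb2. A group 10 gene was found in 8.97% and 6.03% of Pdgfra+ cells, so the order of the stages was that of the summed levels.

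Cells with a group 10 UMI (Hoxa10, Hoxc10 or Hoxd10; 1663 thinned Pdgfra+ cells at puberty and 1241 in the adult) were set against the 16879 and 19332 cells without one. Hoxa9 was the 1 of 15 other tested Hox genes at least 1.5-fold higher at both stages, where 0.233% of all genes were, and none was lower (0.278%). It was found in 5.71% of cells with against 2.81% of cells without a group 10 UMI at puberty, and in 9.43% against 2.94% in the adult. In CPM it had 20.6 against 10.1 at puberty (ratio 2.04, 1.64 to 2.53) and 37.9 against 10.9 in the adult (3.47, 2.87 to 4.17). Hoxa9 was thus more frequent in cells with a group 10 UMI at both stages, though most of those cells held no Hoxa9 UMI at this depth.

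By pairs, the share of cells with Hoxa9 was 2.13 times (1.45 to 3.03) and 3.96 times (2.88 to 5.33) as high in cells with a Hoxa10 UMI as in cells without. Hoxc10 was 1.73 and 3.23 times as frequent in cells with Hoxa10, although these genes lie on different chromosomes. Hoxc8 and Hoxc4, middle genes of the same cluster as Hoxc10, had ratios below 1 in cells with a group 10 UMI. These were 0.897 and 0.738 for Hoxc8 and 0.958 and 0.737 for Hoxc4. Other middle genes of the cluster differed. In cells with against without Hoxc10, Hoxc6 had ratios of 1.042 and 1.045, and Hoxc5 of 0.674 and 1.385, with intervals that included 1. In that split the puberty intervals of Hoxc8 (0.7545 to 1.185) and Hoxc4 (0.7183 to 1.187) also included 1.

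In all, 26 genes, Hoxa9 among them, were at least 1.5-fold higher in cells with a group 10 UMI at both stages and 31 lower. Outside the Hox clusters, the 5 highest by their mean were Ndst3, an enzyme of heparan sulfate synthesis (2.15 and 2.71), the uncharacterized 5830444B04Rik (2.10 and 2.20), Tafa1, a secreted chemokine-like protein (1.91 and 2.22), the kinase gene Prkcb (2.02 and 2.01) and the collagen-binding integrin gene Itga10 (2.27 and 1.71). The 5 lowest were the collagen gene Col8a1 (0.168 and 0.0568), Thbs4 (0.128 and 0.110), the adhesion gene Tenm2 (0.260 and 0.124), Bmp5 (0.341 and 0.103) and the glutamate receptor gene Grm8 (0.180 and 0.296). Thbs4 and Bmp5 are the gate genes of the subset with low Hoxc10 described above, and Col8a1 had 18 UMIs in cells with against 1089 in cells without a group 10 UMI at puberty and 11 against 3016 in the adult. Within Pi16+Dpp4+ cells alone, several of these directions were lost on few UMIs. Tafa1 was listed at 0 UMIs against 29 at puberty and had a ratio of 0.765 (0.243 to 1.84) in the adult, 5830444B04Rik had 2.21 and 0.565 (0.0669 to 2.13), and Tenm2 had 2.71 (0.789 to 7.49) at puberty. Hoxa9 within these cells had ratios of 2.06 and 3.76, and Col8a1 of 0.332 and 0.0537.

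Genes whose proteins act with or on Hox genes were measured as lists, by their RNA. Of the 9 cofactors of the Pbx, Meis and Pknox families, which bind DNA jointly with Hox proteins, all were tested between the stages, 2 were higher in the adult and none lower, with a median ratio of 1.07, beside 16.7% and 6.41% of all genes. Meis1 went from 43.8 to 81.8 CPM (1.87) and Meis2 from 126 to 224 CPM (1.78). Of 8 tested in mural cells, Meis1 (0.211 and 0.242) and Pknox2 (0.281 and 0.439) were lower at both stages, where 12.7% of all genes were. Pbx3 was higher in mural cells at puberty (2.01), where 18.4% of all genes were. In Thbs4 or Bmp5 cells none of the 9 was higher and Pbx4 was lower at both stages (0.409 and 0.464), beside 2.24% and 0.795% of all genes at both.

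Of 16 chromatin regulators that keep Hox genes silent or active, all were tested between the stages and 1 was called. This was the Polycomb gene Bmi1, which went from 12.7 to 20.4 CPM (1.60). That is a smaller share than the 16.7% of all genes that were higher. None was lower, beside 6.41% of all genes, and the median ratio was 1.14. The most abundant was Kdm6b, a demethylase that removes the Polycomb mark, at 295.4 and 253.6 CPM. In mural cells 2 of 15 were higher at both stages, among them the Polycomb reader gene Cbx7 (3.32 and 2.39), a share near the 13.7% of all genes. None of the 16 was called in Thbs4 or Bmp5 cells. Of all genes tested there, 5.81% were higher and 1.61% lower at puberty, and 2.91% and 2.27% in the adult. Of the 6 retinoid receptors, which act upstream of anterior Hox genes in the embryo, 5 were tested. Of these 1, Rarb, was higher in the adult (1.82), near the 16.7% of all genes. In mural cells 1 of the 5 receptors, Rarg, was lower at puberty (0.421), beside 18% of all genes. Rarg was also the most abundant of them in Pdgfra+ cells, at 52.2 and 57.5 CPM. None of the 5 was called in Thbs4 or Bmp5 cells, beside the shares of all genes given above for that subset.

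Other transcription factors of position and limb gave 11 tested genes of 18, with a median ratio of 1.10. Msx1 (1.99) and Prrx2 (1.85) were higher in the adult, and Pitx1, which marks the hindlimb, was lower, going from 1.99 to 1.05 CPM (0.526), so that 2 and 1 of 11 stood beside 16.7% and 6.41% of all genes. Prrx1, a gene of limb and flank mesenchyme, was the most abundant at 558.9 and 492.2 CPM. Of 10 tested, mural cells had higher Tbx5, a forelimb gene (5.86 and 4.08), where 13.7% of all genes were higher at both stages. En1 (0.195 and 0.112), Emx2 (0.227 and 0.235), Prrx1 (0.307 and 0.408) and Prrx2 (0.181 and 0.0476) were lower, where 12.7% of all genes were. Lmx1b, a gene of the dorsal limb, was higher in mural than in Pdgfra+ cells of the adult library (5.97), where 18.1% of all genes were. Thbs4 or Bmp5 cells had higher Hand2, a gene of limb and heart (10.2 and 9.30), where 2.24% of all genes were higher at both stages. At puberty Pitx1 (0.415) and Lmx1b (0.413) were lower there, 2 of 12 tested beside 1.61% of all genes. Pitx1 was also more abundant in cells with a group 10 UMI, at ratios of 3.38 (2.18 to 5.13) and 2.27 (0.932 to 4.78), under the level filter and with an adult interval that included 1.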

How the data were processed

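Stromal cells of 2 stages were measured in 1 single-cell library each, grouped by the labels. The authors deposited raw UMI counts per gene and cell, made with Cell Ranger 8.0.1 on mm10 per the submitters' processing notes; the annotation and whether counting used strand were not given in the sources used here. Reads from exons that genes share cannot be assigned to 1 of them, so Hoxc5, Hoxc10, Hoxd3 and Hoxd4 are uncertain. Overlap through introns was not examined. The span of Hoxc5 also covers Hoxc6, Hoxc8 and Hoxc9, and that of Hoxa3 covers Hoxa4, Hoxa5 and Hoxa6. The libraries held 255274670 and 259549498 UMIs.

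Cells with at least 500 genes and at most 10% mitochondrial UMIs were kept. UMIs were summed per gene, stage and cell group and scaled to 1000000 (CPM). Doublets were kept, and left out in an alternative by the highest Scrublet scores at 0.4% per 1000 barcodes. Levels have exact Poisson intervals, shares exact Clopper-Pearson intervals and ratios conditional binomial intervals, all at 95% and all for counting error only; UMIs of 1 cell are not independent samples, and cells are not replicates. A gene was called at 1.5-fold between stages (also for group 10) or 2-fold between cell groups, among genes with a mean of at least 1 CPM and at least 10 expected UMIs in the smaller sum. No test was run, since each stage had 1 library. Shares of cells were computed after thinning each cell to 3000 UMIs. Coordinates and homeoboxes come from GENCODE M21 on GRCm38, matched by gene ID for 32012 of 33696 genes and all 39 Hox genes, and promoters from RefSeq.

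The text names, with full values, the 10 Hox genes with the highest mean level, every Hox gene called, the called and the highest members of the other lists (cofactors, chromatin regulators, positional factors, retinoid receptors, non-coding RNAs), and the 5 highest and 5 lowest called genes of the group 10 comparison. Others were named after their values were seen. A few genes and sequences that this rule would name are not reported or drawn here. The members, lists and gates were chosen with earlier results of these data known. Alternatives changed the cell filters, doublets, gate thresholds, scaling, weighting, folds, level filter and thinning depth. The ratio and interval code was tested on simulated data. Python 3.11.15, numpy 2.4.6, scipy 1.17.1, pandas 2.3.3, scanpy 1.11.5 and matplotlib 3.10.9 were used.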

Additional observations from a re-analysis of the deposited data

Results flagged for a closer look

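Ratios between a fibroblast subset and the other Pdgfra+ cells that lay on opposite sides of 1 at the 2 stages, with both counting intervals excluding 1, were found for 6 Hox genes. In each case the difference between the stages was not tested, since each stage is 1 library, and all ratios were below the 2-fold limit. In Pi16+Dpp4+ cells, Hoxa10 had a puberty ratio of 1.33 (1.19 to 1.48) and an adult ratio of 0.875 (0.794 to 0.965), so that the adult ratio was 0.659 times that at puberty. Hoxc9 showed the same order, from 1.15 to 0.921 (0.804 times), and Hoxc4 the opposite one, from 0.793 to 1.14 (1.44 times). In Gdf10 or Fmo2 cells, Hoxb6 had 1.20 and 0.877 (0.731 times). In Thbs4 or Bmp5 cells, Hoxa5, which is needed for lung development, had 1.68 (1.27 to 2.18) and 0.730 (0.604 to 0.876), the furthest apart of the 6 at 0.434 times. In Fabp4 cells, Hoxc8 had 1.16 and 0.942 (0.811 times).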

How the results depend on the processing

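Each stage was 1 library of pooled females, so no replicate could be left out and no difference between stages has a replicate check. No paired analysis was possible because the stages share only 1 replicate number. Most Hox genes had few UMIs per cell, and mural values rest on 783 and 457 cells. The Hox total, adult over puberty, was 1.13 scaled by the median gene, 1.25 as a mean per cell and 1.17 with equal weight of subsets, in place of 1.24. Hox genes called higher in the adult (8) numbered 3 at 2-fold and 14 without a minimum level, and those called lower (0) numbered 1 with at least 2 Pdgfra UMIs, 3 scaled by the median gene and 3 without a minimum. Alternatives chosen after seeing the data counted single subsets, with 5 higher in Gdf10 or Fmo2, 2 in Fabp4 and 5 in Crabp1 cells, and 2 lower in Pi16+Dpp4+, 1 in Gdf10 or Fmo2, 4 in Thbs4 or Bmp5 and 1 in Crabp1 cells. For these alternative counts between stages the share of all genes called was not computed, apart from the scaling by the median gene. They are therefore not read as a result about the Hox genes. The share of groups 9 to 13 was 39.8% and 27.9% without Hoxc8, and 26.5% and 18.2% without the 4 genes with overlapping exons (also added after seeing the data). With equal weight of subsets Hoxc9 turned from 0.946 to 1.03. Mural calls at puberty were 7 higher at 1.5-fold, 9 higher without a minimum and 1 lower at a mitochondrial limit of 5%, and 8 were higher in the adult without a minimum. No share of all genes was computed for these mural counts either. The adult mural total ratio was 1.55 as a mean per cell and 1.61 without cells holding an epithelial marker (added after seeing the data). In cells of exactly 1 subset, the Hox total ratio was 0.904 and 0.988 in Pi16+Dpp4+, 1.25 and 1.09 in Gdf10 or Fmo2, 0.949 in Fabp4 at puberty, and 1.25 and 1.06 in Crabp1 cells. With 1 UMI more per marker it was 1.15 in Gdf10 or Fmo2 and 0.955 in Thbs4 or Bmp5 cells at puberty. Hoxa9 with group 10 had a ratio of 4.49 in the adult without thinning. The cause of these shifts was not tested. The other 158 values that answer a comparison, and 304 of 393 values of single genes, moved by less than their counting interval or 1.5 times, and 88 single-gene values moved by more. Among these, Hoxa9, which was not called, went from an adult over puberty ratio of 1.05 to 0.960 scaled by the median gene and to 0.880 with equal weight of subsets.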
